A study of Rattus norvegicus with 154 samples.

Results

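The 31 genes described here are Pard3, Dock9, Cdk14, Plcb4, Plcb1, Map2k6, Ttc28, Veph1, Arl15, Ankrd44, Mad1l1, Zdhhc14, Atg10, Fto, Ptprm, Lrba, Fggy, Fars2, Tcf7l2, Rapgef2, Rapgef4, Rapgef5, Fam13c, Prickle2, Meis2, Mertk, Atrnl1, Lama2, Prr5l, Mpdz and Nell1. They were chosen by their low values in rat lung after 3 or 6 mg sulfur mustard, set against animals given the vehicle isopropyl alcohol, so those comparisons are given below as a description and not as a test. Their symbols were carried by 40 of the 15866 probe sets of the array, and 33 of these passed the filter on low intensity. Each of the 31 genes kept at least 1 probe set, out of 8042 genes tested, and the brightest probe set, by mean intensity, stands for each gene.

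The study measured lung RNA of 77 rats on 154 Affymetrix RAE230A arrays, 2 chips for each animal. Rats received 1, 3 or 6 mg sulfur mustard in isopropyl alcohol, isopropyl alcohol without agent, or saline without agent, and lungs were taken 30 min, 1, 3, 6 or 24 h later. Each of the 25 groups held 3 animals, except 6 mg at 30 min and at 1 h, which held 4. Strain, age, sex and route of exposure are not given in the labels used here, nor is the body mass to which a dose refers. Nothing in the labels says how animals were distributed over experiments, so the spread between animals may include technical spread.

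Sulfur mustard, bis-(2-chloroethyl) sulfide, is an alkylating agent that reacts with DNA bases and can join the strands of the helix. RNA polymerase II copies exons and introns of a gene in one passage, so the gene's span in the genome, and not the length of its mature message, sets how much DNA is read for each transcript. The 31 genes encode proteins with unrelated roles: cell polarity proteins, exchange factors for small GTPases, phospholipases and kinases, surface receptors and matrix proteins, transcription factors, and enzymes. Arrays measure the RNA that is present in bulk lung, in which fewer cells of a type and less RNA per cell cannot be told apart.

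All 31 genes were long. The set was proposed as mostly long genes, with earlier results of these data known, so its length is a description and not a finding. In the RefSeq annotation of assembly GRCr8, which is not tied to the array's own design, their spans ran between 106.4 kb for Mertk and 864.4 kb for Nell1, with a median of 309.8 kb. The median over the 8022 tested genes with a span was 22.64 kb. All 31 were longer than 100 kb, against 12.7% of tested genes, and 17 were longer than 300 kb, against 2.12%. Plcb1 spanned 711.3 kb, Ptprm 704.6 kb, Lama2 647.9 kb, Cdk14 594.4 kb and Lrba 581.2 kb. At the short end were Map2k6 with 115.0 kb and Fam13c with 122.2 kb, which were still longer than 89.6% and 90.7% of tested genes.

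No searched sequence word was present in the promoters of all the genes. RefSeq's GRCr8 table held a window of 300 bases around the gene start for 29 of the 31, and for 6713 of all tested genes. The median GC content was 65.67% in the 29 and 61.33% in all tested genes, with a range of 41.33% to 84.33% in the 29. The GC box GGGCGG was present on either strand in 19 of 29 (65.5%, against 64.3% of all), CCAAT in 6 (20.7%, against 37.6%) and TATAAA in 4 (13.8%, against 6.99%). The E-box CACGTG and the cyclic AMP response element TGACGTCA were in none of the 29, against 9.49% and 2.95% of all. The searched words are not contained in each other, and neighbouring GC boxes can overlap. A match describes the letters only.

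The following 5 promoters are shown because they belong to the genes that mark the different time courses below: Prickle2, lowest at 3 h; Pard3, with the lowest difference at 6 h; Nell1, lowest at 24 h; and Plcb1 and Plcb4, which lie next to each other on chromosome 3 and were both lowest at 6 h. Capitals mark the GC box, CCAAT box or TATA box words on either strand; all are GRCr8, 5′ to 3′ on the gene's strand.
Prickle2 (chr4:126771867-126772166, minus strand): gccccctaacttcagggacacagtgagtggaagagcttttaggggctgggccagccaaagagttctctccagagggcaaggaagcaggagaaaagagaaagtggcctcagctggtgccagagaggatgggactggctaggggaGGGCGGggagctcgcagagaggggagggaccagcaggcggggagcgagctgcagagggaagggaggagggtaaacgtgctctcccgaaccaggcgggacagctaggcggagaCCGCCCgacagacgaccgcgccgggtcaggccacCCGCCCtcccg
Pard3 (chr19:71977253-71977552, plus strand): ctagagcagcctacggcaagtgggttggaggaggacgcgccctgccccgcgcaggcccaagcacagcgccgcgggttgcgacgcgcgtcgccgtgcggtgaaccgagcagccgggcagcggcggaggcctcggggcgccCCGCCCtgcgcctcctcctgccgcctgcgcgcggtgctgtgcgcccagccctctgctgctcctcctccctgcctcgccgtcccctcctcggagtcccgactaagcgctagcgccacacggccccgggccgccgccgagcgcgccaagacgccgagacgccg
Nell1 (chr1:108845212-108845511, plus strand): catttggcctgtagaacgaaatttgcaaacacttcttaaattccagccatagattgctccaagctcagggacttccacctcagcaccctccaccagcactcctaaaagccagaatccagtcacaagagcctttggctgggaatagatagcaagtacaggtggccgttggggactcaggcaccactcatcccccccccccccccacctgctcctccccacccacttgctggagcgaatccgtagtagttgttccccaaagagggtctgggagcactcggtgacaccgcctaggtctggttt
Plcb1 (chr3:142512515-142512814, plus strand): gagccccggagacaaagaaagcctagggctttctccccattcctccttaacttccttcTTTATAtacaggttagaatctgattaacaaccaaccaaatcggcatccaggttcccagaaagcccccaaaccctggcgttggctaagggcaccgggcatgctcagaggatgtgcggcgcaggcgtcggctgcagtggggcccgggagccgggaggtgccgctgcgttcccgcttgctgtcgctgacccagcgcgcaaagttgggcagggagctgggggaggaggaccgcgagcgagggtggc
Plcb4 (chr3:143405723-143406022, plus strand): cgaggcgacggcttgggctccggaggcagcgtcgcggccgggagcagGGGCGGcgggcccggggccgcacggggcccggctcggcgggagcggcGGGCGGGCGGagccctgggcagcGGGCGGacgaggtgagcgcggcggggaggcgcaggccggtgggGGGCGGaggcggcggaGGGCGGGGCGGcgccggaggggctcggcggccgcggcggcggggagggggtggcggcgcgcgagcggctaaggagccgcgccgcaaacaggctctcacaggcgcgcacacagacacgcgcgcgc
The windows differed in composition: Plcb4 had 84.33% GC and 55 CpG dinucleotides, Plcb1 61.67% and 19, and Nell1 55.33% and 6, with none of the 5 words. Plcb1 held TATAAA as its reverse complement, and Prickle2 held GC boxes on both strands.

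After 6 mg, the 31 genes together were at the control level at 30 min, slightly below it at 1 h, lower at 3 h, lowest at 6 h, and partly back at 24 h. For this description a gene is called lower where limma's p, adjusted by the Benjamini-Hochberg method over all probe sets, is under 0.05. After 6 mg, 0, 2, 20, 25 and 11 of the 31 were called lower at 30 min, 1, 3, 6 and 24 h, and none was called higher. Among all 8042 genes the shares called lower at these times were 0.0%, 0.0249%, 8.74%, 11.1% and 4.07%. Nothing is read from these counts, since the same contrasts chose the genes. The median log2 difference from isopropyl alcohol over the 31 was 0.0093, -0.30, -0.78, -1.58 and -0.46. All log2 differences are of intensity plus 7, which makes differences of dim probe sets too small.

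**Figure D1:**
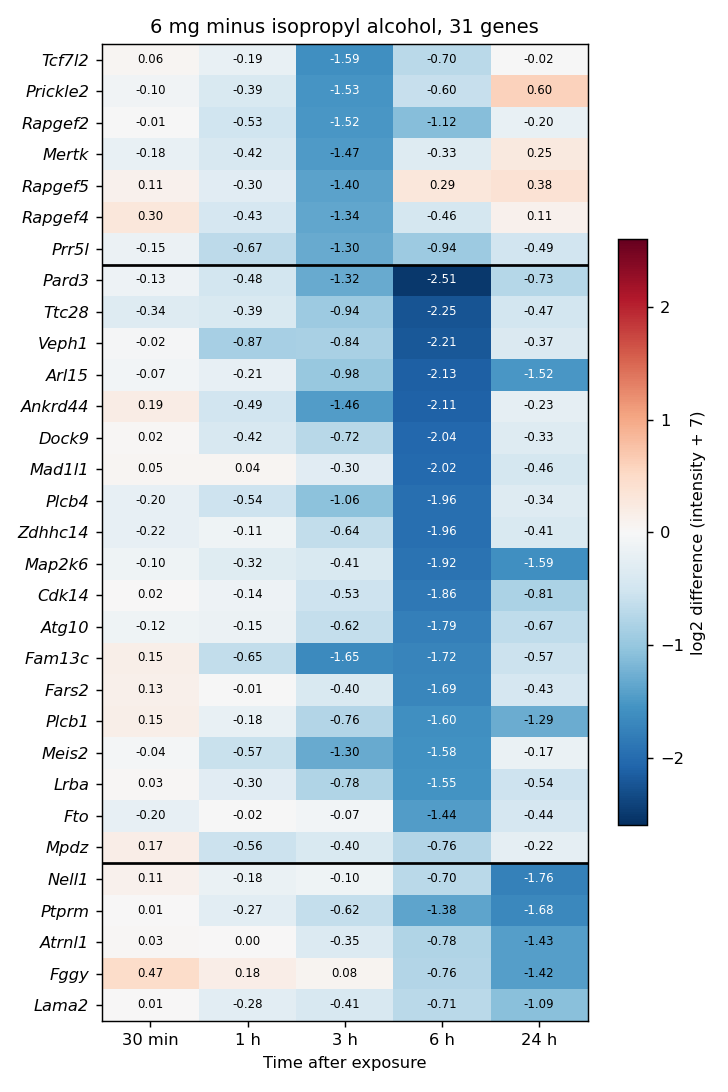
Log2 difference of 6 mg minus isopropyl alcohol (intensity plus 7) for the 31 genes (rows) at the 5 times (columns), blue for lower and red for higher. Black lines part the 7 genes that were lowest at 3 h, the 19 lowest at 6 h and the 5 lowest at 24 h; the darkest cell is Pard3 at 6 h, at -2.51.

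The median over the 31 genes in each animal, relative to the 15 saline animals, gives the same picture. At 6 h the 6 mg animals lay at -1.79, -1.51 and -1.22, against -0.04, -0.01 and 0.07 in isopropyl alcohol animals. At 3 h they lay at -1.09, -0.54 and -0.53, against 0.04, 0.08 and 0.12. At 24 h they lay at -0.55, -0.55 and -0.46, against -0.07, -0.02 and 0.11. The groups did not overlap at any of these 3 times. At 1 h the 4 exposed animals lay at -0.30, -0.25, -0.14 and -0.05, against 0.07, 0.13 and 0.22. One saline animal at 6 h, replicate 2, stood apart at -0.43 and also had the highest array median (99.95 over its chips), and 1 animal at 3 h after 6 mg, replicate 3, had both the lowest gene median and the lowest array median (68.1).

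**Figure D2:**
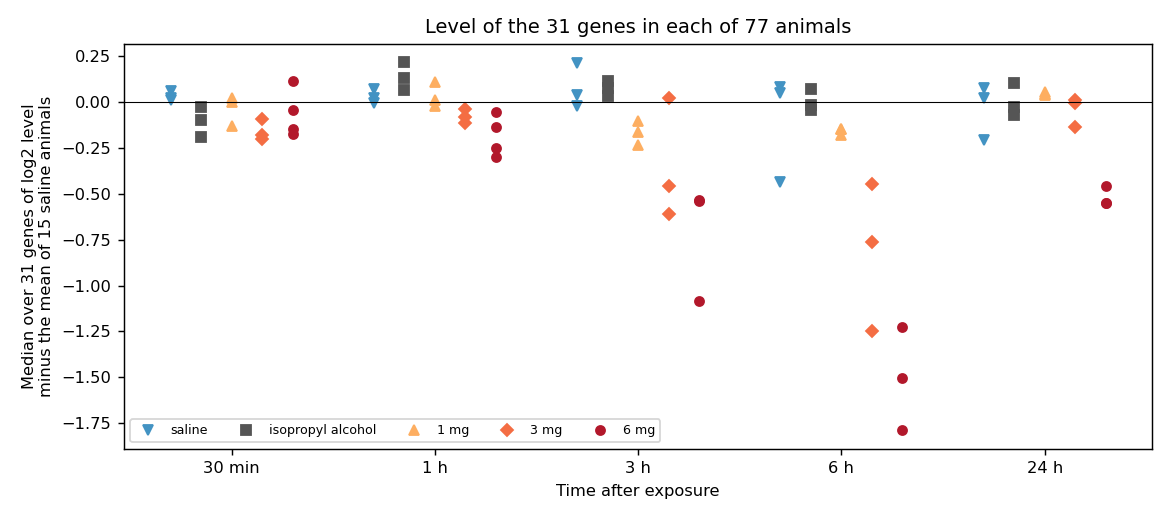
Median over the 31 genes of the log2 level in each of the 77 animals, relative to the mean of the 15 saline animals, by time and by group, with controls at the left of each time and doses low to high. The 3 animals given 6 mg lie below all control animals at 3, 6 and 24 h, and between -1.79 and -1.22 at 6 h.

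Among genes encoding polarity and planar polarity proteins, Pard3 had the lowest log2 difference of the 31 at 6 h. Pard3 encodes the scaffold of the Par complex that sets apical and basal sides of epithelia. At 6 h it measured 23.65, 7.3 and 21.75 intensity units after 6 mg, against 145.3, 111.8 and 116.7 after isopropyl alcohol, a log2 difference of -2.51 ± 0.24 (SE, n = 3 each). All 3 exposed animals were far below all 3 controls. At 24 h it measured 78.2, 78.45 and 86.7, against 138.6, 147.6 and 131.1, and 29.1% of the 6 h log2 difference remained. All such percentages given here are ratios of log2 differences, not of differences in intensity.

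Prickle2 encodes a cytoplasmic protein of the planar polarity pathway. At 3 h it measured 260.3, 165.8 and 47.05 after 6 mg, against 368.7, 377.5 and 409.1 after isopropyl alcohol (-1.53 ± 0.24). The exposed animals were lower but spread widely, and without the lowest of them the difference was -0.87. At 24 h the exposed animals were the higher ones, with 564.0, 745.4 and 614.5 after 6 mg, against 391.0, 438.8 and 428.9, though the gene was not called. Mpdz, a scaffold with many PDZ domains found at tight junctions, differed least at its lowest time, with 63.35 ± 4.91 at 6 h, against 112.2 ± 9.98 (SD, n = 3 each; log2 difference -0.76).

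Exchange factors and other regulators of small GTPases differed in their courses. Rapgef2, Rapgef4 and Rapgef5 each encode an activator of Rap GTPases, and all 3 were lowest at 3 h. Rapgef2 measured 319.6, 290.6 and 110.9 at 3 h after 6 mg, against 636.3, 677.2 and 607.0 after isopropyl alcohol (-1.52 ± 0.20), with no overlap. Rapgef4 had 19.35 ± 7.95, against 57.42 ± 9.71 (SD, n = 3 each). Rapgef5 measured 251.8, 286.3 and 114.2 at 3 h, against 566.7, 518.9 and 546.5. At 6 h it measured 829.3, 697.8 and 755.4 after 6 mg, against 768.7, 434.9 and 708.6, and the groups overlapped. At 6 h Rapgef2 was still at -1.12, Rapgef4 at -0.46 and Rapgef5 at 0.29.

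Dock9, an activator of Cdc42, was lowest at 6 h with 106.5 ± 8.61, against 453.1 ± 55.1 (SD, n = 3 each; -2.04 ± 0.18 SE). At 24 h it was at -0.33, so 16.41% of the difference remained. Arl15, a small GTPase of the ADP-ribosylation factor family, measured 40.45, 36.85 and 34.55 at 6 h after 6 mg, against 144.0, 228.3 and 190.6. At 24 h it was still far below, with 92.15, 91.2 and 123.9, against 329.0, 290.6 and 297.1, and 71.51% of the log2 difference remained. Fam13c was already as low at 3 h as later. Its 3 h values were 79.5, 35.6 and 13.35, against 114.3, 141.2 and 121.0 (-1.65 ± 0.28), and its 6 h difference was -1.72. At 1 h Fam13c measured 84.5, 56.6, 76.75 and 74.05 after 6 mg, against 137.4, 80.45 and 144.3, and the groups overlapped.

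**Figure D3:**
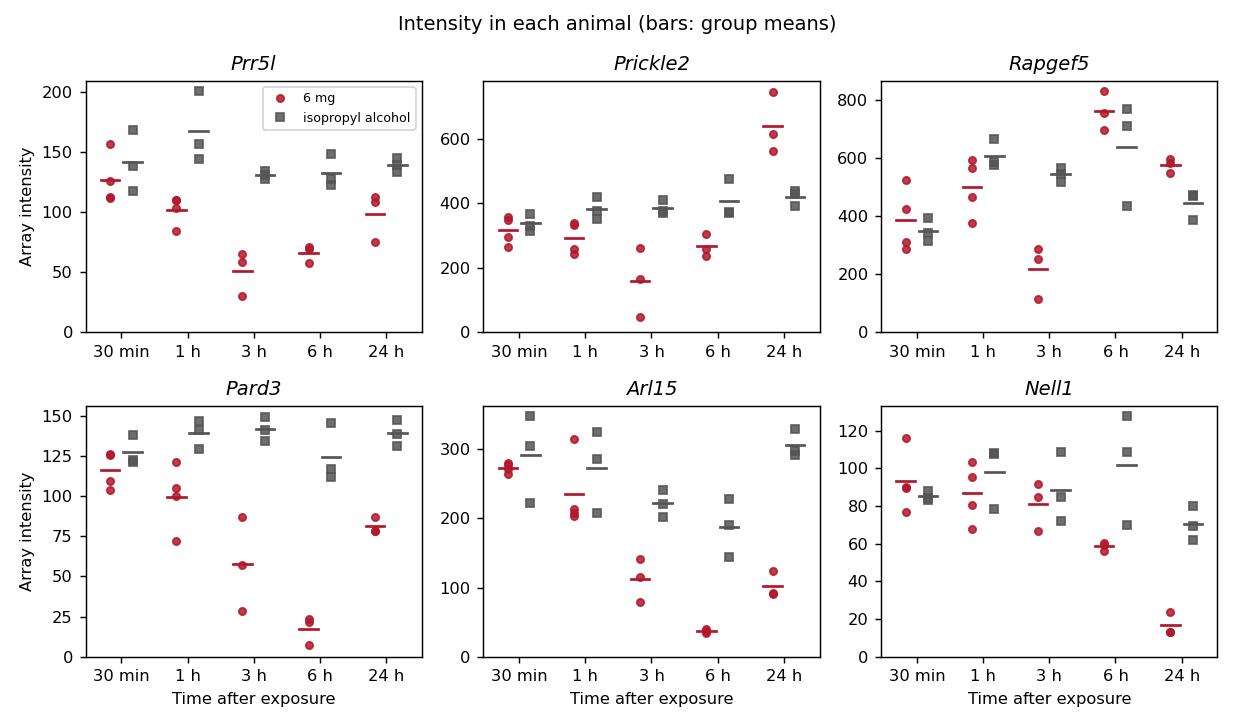
Array intensity of 6 genes in each animal given 6 mg (red circles) or isopropyl alcohol (grey squares) at the 5 times, with bars at the group means. Prr5l, Prickle2 and Rapgef5 are lowest at 3 h, Pard3 and Arl15 at 6 h and Nell1 at 24 h, where its 6 mg animals lie between 13.05 and 24.0.

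Genes of phospholipase and kinase signalling were mostly lowest at 6 h. Plcb1 and Plcb4 encode phospholipase C enzymes that act downstream of Gq-coupled receptors. Plcb1 had 39.13 ± 5.13 at 6 h after 6 mg, against 139.0 ± 56.3, and Plcb4 had 83.6 ± 48.5, against 306.7 ± 15.9 (SD, n = 3 each). Their log2 differences were -1.60 and -1.96 at 6 h. At 24 h they parted: 80.77% of the difference remained for Plcb1 and 17.47% for Plcb4.

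Map2k6 encodes the kinase that activates p38. At 6 h it measured 8.3, 8.6 and 4.15 after 6 mg, against 42.95, 46.65 and 45.0 after isopropyl alcohol. At 24 h it measured 5.85, 10.6 and 14.65, against 55.9, 39.85 and 39.2. It was low at both times and kept 82.73% of its 6 h log2 difference. Its exposed values lie near the offset of 7, so the log2 differences of -1.92 and -1.59 are smaller than the ratio of the intensities. Cdk14, a cyclin-dependent kinase that acts with cyclin Y in Wnt signalling, had 77.05 ± 20.4 at 6 h, against 291.0 ± 19.9. At 24 h 43.86% of its log2 difference remained.

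Prr5l encodes a partner of the mTORC2 kinase complex and was one of 2 genes called lower at 1 h. It then measured 103.5, 110.0, 110.0 and 83.95 after 6 mg, against 200.6, 157.1 and 143.8 after isopropyl alcohol (-0.67 ± 0.16). Mpdz was the other, with 107.0, 100, 101.4 and 101.7, against 161.0, 164.8 and 137.7 (-0.56 ± 0.12). Neither gene's groups overlapped at 1 h, and these were the only genes of 8042 called lower. Both calls were lost with either chip alone, with scan day as a block, with saline animals as the control and without isopropyl alcohol replicate 1 or 2 or 6 mg replicate 2 or 3; without 6 mg replicate 1 or 4, or isopropyl alcohol replicate 3, 1 call was left. At 3 h Prr5l measured 65.45, 58.6 and 29.75, against 130.7, 133.9 and 127.3. Zdhhc14, a protein palmitoyltransferase, had 13.28 ± 7.13 at 6 h, against 65.17 ± 2.71 (SD, n = 3 each).

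Receptors and matrix proteins held 4 of the 5 genes that were lowest at 24 h. Nell1 encodes a secreted glycoprotein with thrombospondin-like domains. At 24 h it measured 13.15, 13.05 and 24.0 after 6 mg, against 80.05, 69.4 and 62.15 after isopropyl alcohol (-1.76 ± 0.20). At 3 h its groups overlapped, with 91.95, 84.85 and 67.0, against 108.5, 72.0 and 84.95. It was called lower at 6 h (-0.70) and was lowest at 24 h.

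Ptprm, a receptor tyrosine phosphatase that binds itself between neighbouring cells, was low at 6 h and stayed low. At 24 h it measured 70.35, 114.2 and 56.8, against 268.9, 312.5 and 212.9 (-1.68 ± 0.24), and at 6 h it was at -1.38. Lama2, the laminin alpha 2 chain of basement membranes, had 87.95 ± 20.1 at 24 h, against 192.2 ± 25.01. Atrnl1, which encodes a membrane protein related to attractin, had 105.5 ± 14.0, against 295.7 ± 38.6 (SD, n = 3 each). Mertk, the receptor kinase with which macrophages bind dying cells, had the opposite course: it was lowest at 3 h with 53.35, 43.15 and 14.75, against 88.45, 96.65 and 106.9, and at 24 h was at 0.25 on the log2 scale.

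Among genes for nuclear proteins, Tcf7l2, which encodes a transcriptional partner of beta-catenin, was lowest at 3 h. It measured 106.5, 72.1 and 25.85 after 6 mg, against 180.1, 210.4 and 183.9 after isopropyl alcohol (-1.59 ± 0.20), with no overlap. At 24 h its difference was -0.02, so 1.117% remained. Meis2, a homeodomain transcription factor, had 12.38 ± 7.83 at 6 h, against 49.28 ± 11.6 (SD, n = 3 each). At 1 h Meis2 measured 31.85, 27.0, 33.75 and 43.3 after 6 mg, against 41.35, 45.2 and 81.75, and the groups overlapped. Fto, an RNA demethylase, was not low at 3 h (-0.07) but had 65.87 ± 11.9 at 6 h, against 183.2 ± 5.96. Mad1l1, the human counterpart of which is a spindle checkpoint protein, had 9.5 ± 5.38 at 6 h, against 63.48 ± 13.1.

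The remaining genes encode enzymes and proteins of mixed function. Ttc28, a protein of repeated TPR motifs, measured 50.85, 22.5 and 29.3 at 6 h after 6 mg, against 167.8, 172.1 and 187.4 (-2.25 ± 0.25). Veph1, named for a pleckstrin homology domain, measured 25.25, 5.3 and 6.35 at 6 h, against 73.05, 68.15 and 78.9. At 1 h Veph1 had the lowest log2 difference of the 31 (-0.87), but its animals spread widely, with 100.8, 23.45, 47.8 and 90.35, against 118.5, 121.8 and 93.0. The groups overlapped, and Veph1 was not called at 1 h.

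Ankrd44, an ankyrin repeat protein, had 74.9 ± 17.7 at 6 h, against 337.3 ± 20.0. Lrba, a BEACH-domain protein that in human sustains CTLA4 on T cells, had 57.42 ± 9.28, against 179.4 ± 7.56. Atg10, an E2-like enzyme of autophagy, had 9.133 ± 3.85, against 44.33 ± 5.78 (SD, n = 3 each). These 3 were low together, and 11.15%, 34.98% and 37.37% of their log2 differences remained at 24 h. Fars2, the mitochondrial phenylalanyl-tRNA synthetase, had 11.7 ± 3.53 at 6 h, against 51.63 ± 6.66. Fggy, a carbohydrate kinase, was lowest at 24 h with 23.77 ± 7.04, against 68.82 ± 23.8 (SD, n = 3 each), and at 3 h it was at 0.08 on the log2 scale.

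Of the 31 genes, 18 were first called lower at 3 h, 9 at 6 h, 2 at 1 h and 2 (Fggy and Lama2) at 24 h. At both 3 and 6 h, 16 were called, 4 at 3 h alone of these times and 9 at 6 h alone. Among all genes 0.0249%, 8.74%, 11.1% and 4.07% were called lower at 1, 3, 6 and 24 h, for the first time or again. The counts of the 31 are a description, since the same contrasts chose the genes. The share of the lower of the 3 and 6 h log2 differences that remained at 24 h was taken for each gene. It was under 25% for 14 genes, 25% to 50% for 9, 50% to 100% for 3 and at least 100% for 5. These 5 were Nell1, Ptprm, Atrnl1, Fggy and Lama2, which were lowest at the last time measured. Nell1, Ptprm and Atrnl1 were already called lower at 6 h. The description of the set as early does not hold for the first call of Fggy and Lama2, nor for the lowest value of any of the 5.

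The time of the lowest value went with the span. The 7 genes lowest at 3 h had a median span of 222.3 kb (106.4 to 345.2 kb), the 19 lowest at 6 h one of 309.8 kb (115.0 to 711.3 kb), and the 5 lowest at 24 h one of 647.9 kb (387.1 to 864.4 kb). The ranges at 3 and 24 h did not overlap. No test was made of this order, because the choice of the genes used the same differences. At 3 h the lowest animal was 6 mg replicate 3, and 9 calls were lost without it. The classes by time were not redrawn without this animal.

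Other genes, which were not chosen, were also called lower in shares that differed with length. Among other genes of up to 10 kb (n = 2107), 0.237%, 2.85% and 3.42% were called lower after 6 mg at 3, 6 and 24 h. Among those of 30 to 100 kb (n = 2231) the shares were 13.1%, 10.8% and 3.18%. Among those of 100 to 300 kb (n = 833) they were 37.2%, 47.1% and 7.68%. Among those over 300 kb (n = 153) they were 25.5%, 62.1% and 33.3%. The share of the longest class was below that of the next class at 3 h and above it at 6 and 24 h. These shares come from the same contrasts that chose the 31, and no test was made of them.

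**Figure D4:**
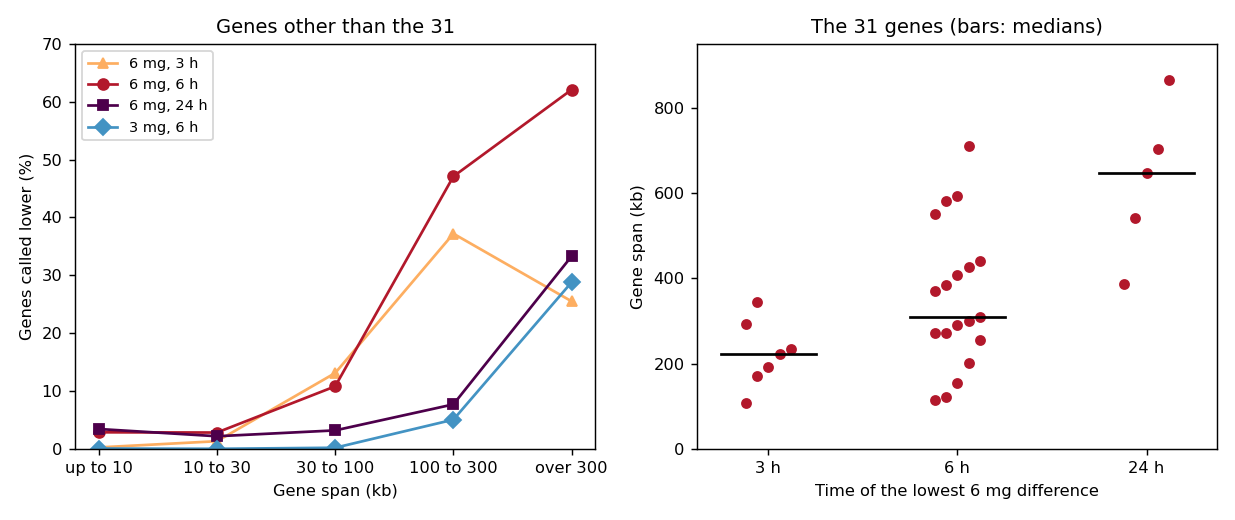
Left, share of genes other than the 31 called lower (percent), by gene span in kb, for 6 mg at 3, 6 and 24 h and 3 mg at 6 h; the share over 300 kb is 62.1% for 6 mg at 6 h. Right, span in kb of each of the 31 genes by the time of its lowest 6 mg difference, with medians of 222.3, 309.8 and 647.9 kb as bars.

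After 3 mg the median over the 31 genes was lowest at 6 h, as it was after 6 mg. For 3 mg, 0, 0, 0, 19 and 1 of the 31 were called lower at 30 min, 1, 3, 6 and 24 h, against 0.0%, 0.0%, 0.0%, 1.37% and 0.211% of all genes. The count of 19 was 7 where only the groups of that time were fitted. Median log2 differences were -0.07, -0.24, -0.43, -0.86 and -0.02. At 6 h, 18 of the 19 were also called after 6 mg. Though none was called at 3 h, all 31 differences after 3 mg were then below 0. Within the single pair of scan days that held both groups at 3 h (1 animal each), 23 of 31 were below 0. The median difference in that pair was -0.07. Nothing is read from the 3 mg counts, since 3 mg values also chose the genes. The single gene called at 24 h was Nell1, with 26.05, 35.6 and 26.7, against 80.05, 69.4 and 62.15, all 3 exposed animals below all controls; that call was lost with saline animals as the control.

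At 6 h the differences were ordered by dose, with 6 mg lowest and 1 mg highest, in 25 of 31 genes, and at 3 h in 18. Genes chosen for low values after 3 or 6 mg tend to lie in this order. The order is therefore a description and not a test of dose. Pard3 was at -0.49, -1.22 and -2.51 at 6 h after 1, 3 and 6 mg. Dock9 was at -0.12, -0.67 and -2.04, and Cdk14 at -0.43, -1.23 and -1.86. In 4 genes 3 mg was lower than 6 mg at 6 h. Ptprm was at -0.44, -1.83 and -1.38 after 1, 3 and 6 mg, Fggy at 0.11, -1.38 and -0.76, and Nell1 at -0.17, -0.96 and -0.70. These 3 were among the 5 genes that were lowest at 24 h after 6 mg. Rapgef5 was the other, at 0.09, 0.27 and 0.29. The doses share the isopropyl alcohol animals, so their differences are not independent of each other.

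**Figure D5:**
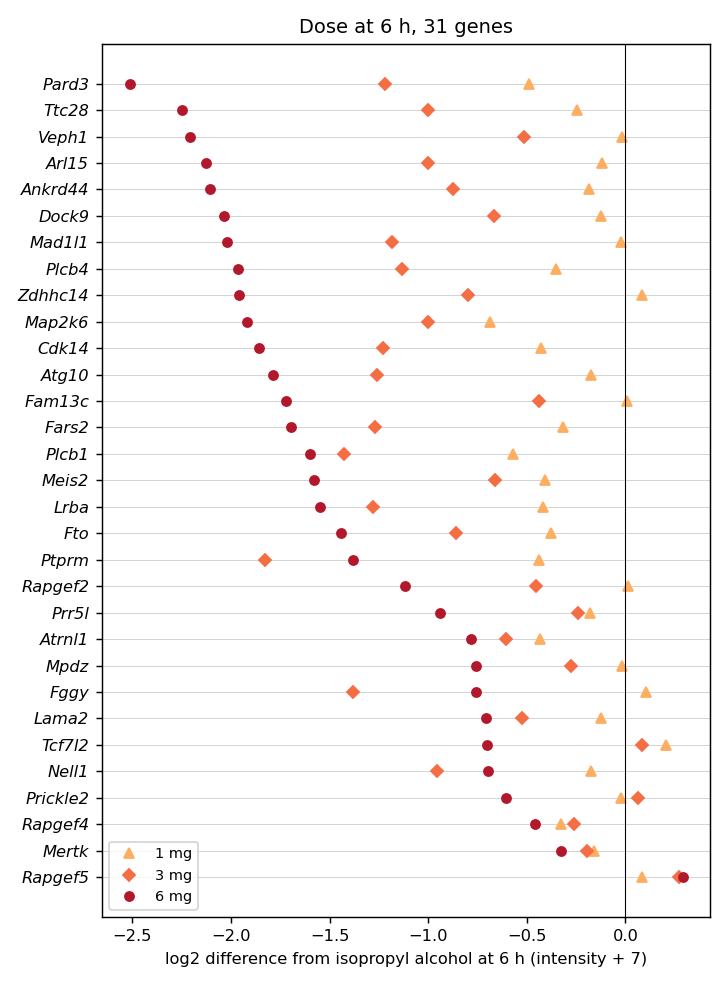
Log2 difference from isopropyl alcohol at 6 h (intensity plus 7) of each of the 31 genes after 1, 3 and 6 mg. For 25 genes the points run with 6 mg at the left and 1 mg at the right; for Ptprm, Fggy and Nell1 the 3 mg point lies left of the 6 mg point.

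The animals given 3 mg were unequal. Their medians over the 31 genes were -1.25, -0.76 and -0.44 at 6 h, and -0.61, -0.46 and 0.02 at 3 h. Without the lowest animal at 6 h, replicate 1, the number called lower was 9, and without isopropyl alcohol replicate 2 it was 11. By 24 h the 3 animals lay at -0.13, -0.003 and 0.01.

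The comparison of 1 mg with saline used none of the animals by whose values the genes were chosen. It is therefore the test of whether they were lower at the lowest dose. Earlier results of these data were known at that choice, so it may not be fully independent of the 1 mg animals. The 1 mg animals also received the vehicle, and saline animals did not. None of the 31 passed the adjusted threshold at 30 min, 1, 3, 6 or 24 h, in either direction, while 0.0%, 0.0%, 0.0%, 0.0995% and 0.0497% of all genes were called lower. With an unadjusted p under 0.05, 0, 1, 5, 4 and 0 of the 31 were lower, against 0.373%, 0.957%, 2.87%, 7.19% and 2.0% of all genes. Median log2 differences were -0.07, 0.02, -0.24, -0.09 and 0.08, beside medians of all genes of -0.005, 0.02, -0.0079, 0.03 and -0.02. Differences below 0 numbered 26, 15, 28, 19 and 8 of 31, while the shares below 0 among all genes were 52.0%, 44.1%, 51.9%, 45.5% and 56.5%.

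The smallest adjusted p belonged to Plcb1 at 6 h. It measured 71.85, 91.7 and 98.9 after 1 mg, against 175.1, 166.9 and 158.4 after saline, a log2 difference of -0.88 ± 0.23 (SE, n = 3 each; limma adjusted p = 0.062). All 3 exposed animals were below all 3 saline animals. Cdk14 was next, with 218.8, 210.2 and 215.3, against 340.2, 265.4 and 305.3 (-0.48 ± 0.14, limma adjusted p = 0.0731). At 3 h Arl15 measured 106.4, 121.0 and 125.1 after 1 mg, against 254.0, 221.7 and 154.2 (-0.78 ± 0.24, limma adjusted p = 0.464). These groups did not overlap either, but the differences did not pass. The 6 h results depended on single saline animals: without saline 6 h replicate 3, Plcb1, Cdk14 and Map2k6 passed (limma adjusted p = 0.0228, 0.0438 and 0.0471), and without replicate 1, Plcb1 did (limma adjusted p = 0.0473).

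At 3 h the 1 mg animals' medians over the 31 genes were -0.23, -0.16 and -0.10, against -0.02, 0.04 and 0.21 in saline animals. These are the values behind the 28 negative differences, and they show no overlap. Within the single pair of scan days that held both groups, the median difference was -0.23, with 26 of 31 below 0 (1 animal each). Other genes shared this direction by length: at 3 h, 41.1% of those up to 10 kb and 82.4% of those over 300 kb were below 0. At 6 h, 5 of 153 other genes over 300 kb (3.27%) were called lower after 1 mg. Against isopropyl alcohol the 1 mg medians were -0.0049, -0.09, -0.30, -0.18 and 0.12 at the 5 times, with no gene of the 31 called, beside 0.0%, 0.0%, 0.0124%, 0.0% and 0.0124% of all genes called lower.

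Time without agent moved 1 of the 31. In saline animals at 24 h, set against saline animals at 6 h, Nell1 measured 35.95, 73.55 and 59.05, against 116.5, 105.8 and 109.9. The groups did not overlap, and the log2 difference was -0.94 ± 0.20 (SE, n = 3 each; limma adjusted p = 0.00424), in a comparison in which 1.14% of genes were called lower. Without saline 24 h replicate 1 it was -0.68 with a limma adjusted p of 0.094. In isopropyl alcohol animals Nell1 measured 80.05, 69.4 and 62.15 at 24 h, against 108.6, 127.6 and 69.85 at 6 h, and these groups overlapped. The 6 mg difference at 24 h is measured against controls of that time. The median of the 31 was 0.12 for saline at 24 h minus saline at 6 h.

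Where a gene had several probe sets, all were below 0 at 6 h after 6 mg, but their sizes often differed. For Prickle2 both passing probe sets gave like values at 3 h, -1.53 for 1390156_a_at and -1.59 for 1386653_at, and at 24 h 0.60 and 0.77. For Dock9 they did not: 1370905_at was at -2.04 at 6 h and 1385378_at at -0.53, with 40.3, 74.3 and 48.5 units after 6 mg, against 75.2, 67.25 and 99.85. The other 7 probe sets were under the filter, with group means between 1.08 and 35.6 units. Tcf7l2's 1392592_at was at -1.12 at 3 h, beside -1.59 for 1377156_at. Mad1l1's 1385669_at was at -1.01 at 6 h, beside -2.02 for 1376567_at, and Plcb4's 1370489_a_at at -0.69, beside -1.96 for 1386962_at. Pard3's 1375512_at was at -0.05, beside -2.51 for 1368053_at, with group means of at most 21.9 units over all groups. Cdk14's 1377604_a_at and 1377606_at were at -0.12 and -0.34, beside -1.86 for 1374747_at. At 3 h Mertk's 1369382_at was at -0.09, beside -1.47 for 1390389_at. The part of low signal in these gaps between probe sets was not tested.

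Relatives and partners of the 31 genes were called lower in a larger share where they were long, with the smallest gap at 24 h. In 16 lists of family and pathway genes that are not members, 125 of 183 genes were tested. After 6 mg, 16, 29 and 8 were called lower at 3, 6 and 24 h and 1, 4 and 6 higher. Among all genes 8.74%, 11.1% and 4.07% were called lower at these times, and 4.3%, 7.42% and 3.0% higher. Of the 32 list genes over 100 kb, 13 were called lower at 3 h (40.6%) and 22 at 6 h (68.8%). Of the 93 up to 100 kb, 3 (3.23%) and 7 (7.53%) were. At 24 h, 4 of the 32 (12.5%) and 4 of the 93 (4.3%) were called lower. At 1 mg minus saline none of the 125 was called at any time.

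At 6 h the polarity list had 4 of 11 tested genes lower and 1 higher, among them Patj (-1.11), Dlg1 (-0.59) and Prkcz (-1.10), with Cldn5, a tight junction claudin of endothelium, higher (0.46). The Dock list had 3 of 5 lower, Dock1 (-0.96), Dock8 (-0.78) and Dock5 (-0.69). The phospholipase C list had 6 of 11 lower, among them Plcg2 (-1.15), Plce1 (-0.71) and the inositol trisphosphate receptors Itpr1 (-0.85) and Itpr3 (-0.54). The mTORC2 list had 3 of 7 lower, Mapkap1 (-1.63), Deptor (-0.75) and Mtor (-0.44). Of the Wnt list 3 of 14 were lower, Tcf7l1 (-1.07), Ccny (-0.82) and Tcf7 (-0.70), and of the Rap list 2 of 9, Sipa1 (-0.73) and Rap1a (-0.43). The p38 list had 2 of 6 lower, Mapk14 (-0.45) and Mapk12 (-0.41), and Map2k3, the paralogue of Map2k6, higher (0.62). The homeodomain list had Pbx3 lower (-0.67) and Tgif1, with a span of 9.62 kb, higher (0.90), of 6 tested.

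Single genes were lower in the autophagy list (Atg7, -1.24, of 10), the BEACH list (Wdfy3, -1.25, of 3), the receptor phosphatase list (Ptprd, -0.91, of 5), the basement membrane list (Itga6, -0.74, of 12) and the Mertk list (Itgb5, -0.48, of 5). With 11.1% of all genes called lower at 6 h, nothing is read about these lists from single calls. In the RNA methylation list Ythdc1 was higher (0.42, of 6). None of 4 spindle checkpoint and none of 11 palmitoyltransferase genes was called; the spindle list had a median of -0.09, with Cdc20 at -0.30 and Bub3 at -0.10, and the palmitoyltransferase list one of -0.03, with Zdhhc20 at 0.74 and Zdhhc9 at -0.30.

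Genes lying next to the 31 on the chromosome were called lower mostly where they too were long. Of 59 neighbouring genes tested, 8, 11 and 2 were called lower at 3, 6 and 24 h (13.6%, 18.6% and 3.39%). The shares among all genes were 8.74%, 11.1% and 4.07%. At 6 h, 10 of 16 neighbours over 100 kb were called (62.5%) and 1 of 43 up to 100 kb (2.33%). The lowest were Nfib, beside Mpdz (215.5 kb, -1.41), and Nrp1, beside Pard3 (155.1 kb, -1.29). Called higher at 3, 6 and 24 h were 3, 3 and 1 of the 59, beside 4.3%, 7.42% and 3.0% of all genes. Short neighbours above the controls included Ccnl1, beside Veph1 (13.69 kb), at 1.33 at 3 h, and Jun, beside Fggy (3.094 kb), at 1.30.

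More markers of lung cell types were called after 6 mg at 24 h than at 3 or 6 h. Among all genes 8.74%, 11.1% and 4.07% were called lower at 3, 6 and 24 h. At 3 h no gene was called in any of 12 marker lists after 6 mg. At 6 h, 1 of 4 endothelial, 1 of 4 T and NK and the single tested B cell marker were lower, and 1 endothelial marker was higher. At 24 h, 4 of 4 T and NK markers were lower, with summed intensities of 86.9 to 119.0 after 6 mg, against 319.4 to 367.3 after isopropyl alcohol. Of smooth muscle markers 4 of 5 were lower (1129 to 1523, against 1903 to 2429), and of endothelial markers 2 of 4 (3859 to 4257, against 4763 to 6003). The B cell marker was lower too (2.35 to 6.55, against 23.1 to 70.9), as was 1 each of 5 alveolar type 1, 4 fibroblast and 4 neutrophil markers. Their part in the 24 h values of Nell1, Ptprm, Lama2, Atrnl1 and Fggy was not tested. Alveolar type 2, club and ciliated, macrophage, heart muscle and red cell lists had none called at 24 h. Only 1 of 4 macrophage and 2 of 4 club and ciliated markers were tested.

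RNA quality and scan day differed between groups too. At 6 h the log2 ratio of the 3′ to the 5′ beta-actin control probe sets was 1.64 ± 0.27 after 6 mg, against 0.73 ± 0.30 after isopropyl alcohol (SD, n = 3 each), and that of GAPDH was 0.94 ± 0.24, against 0.61 ± 0.52. At 3 h the actin ratio was 1.01 ± 0.31, against 0.85 ± 0.09, and the GAPDH ratio 1.04 ± 0.17, against 0.71 ± 0.22. At 24 h the actin ratio was 1.45 ± 0.58, against 0.85 ± 0.28, and the GAPDH ratio 1.22 ± 0.36, against 0.75 ± 0.41. At 1 h the actin ratio was 1.56 ± 1.57 (n = 4), against 0.91 ± 0.58 (n = 3), and the GAPDH ratio 1.34 ± 0.84, against 0.64 ± 0.43. The mean ratios were thus higher after 6 mg at all of these times, and their part in the results was not tested. All 6 mg animals of 6 h were scanned on a pair of days that held no isopropyl alcohol animal of 6 h, so at that time day and group cannot be told apart within the pair. With the pair of scan days as a block, which other groups make possible, 28 of the 31 were called lower at 6 h. Nothing is read from this count, since the same contrast chose the genes. At 3 h, 2 pairs held both groups: the median of the 31 was -0.65 with all 31 below 0 in the first, and -0.81 with 29 below 0 in the second. At 24 h, 1 pair held both, with a median of -0.42 and 24 below 0.

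Some counts after 6 mg moved with single animals. Without 6 mg replicate 3, 11 of the 31 were called lower at 3 h, and Dock9 was at -0.43, in place of -0.72. At 6 h, 23 of the 25 genes, all but Tcf7l2 and Nell1, were called in every alternative with isopropyl alcohol as the control, also without any single animal; Tcf7l2 was lost without 6 mg replicate 2 and Nell1 without isopropyl alcohol replicate 2. At 24 h this held for 7 of 11 (Arl15, Atrnl1, Cdk14, Map2k6, Nell1, Plcb1 and Ptprm), and without 6 mg replicate 1, 7 were called.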

How the data were processed

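Lung RNA of 77 rats was hybridised to 2 RAE230A chips each. The deposited tables hold 1 intensity per probe set, scaled per the file headers to a trimmed mean of 150, with array medians between 67.7 and 100.1; the summarisation program is not given in the sources used here. From these values, 57 control probe sets were left out, 7 (the 10th percentile) was added, log2 was taken and the 2 chips of an animal were averaged. Probe sets in the lowest 30% by mean were removed, leaving 11106 of 15866. The platform table gave 12783 probe sets 1 symbol, 312 several and 2771 none. All 25 groups entered 1 fit in limma 3.58.1 (R 4.3.3), with Benjamini-Hochberg adjustment over all probe sets and a threshold of 0.05. The code was tested on simulated data. Array number limits the precision.

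Animals were grouped by the labels. Members and the 16 family lists were chosen with earlier results of these data known. Values in every animal are given for the 4 members with the lowest 6 mg difference at each of 1, 3, 6 and 24 h, and for genes that need them beyond this rule, which were picked after their values were seen; from a family list, genes called are named, at most 4 by smallest adjusted p, or 2 where none is called. Spans and promoters came from RefSeq (GRCr8). Alternatives were offsets of 16 and 64, no filter, quantile normalization, each chip alone, array weights, the scan-day pair as a block, only the groups of the time, saline animals as control, and each animal left out.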

Additional observations from a re-analysis of the deposited data

Results flagged for a closer look

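In the 6 mg groups of 4 animals, 62 gene and time combinations were screened for 1 animal far from the other 3, and 3 stood out; chance alone flags about 1 in 20 groups. Arl15 measured 314.7 in replicate 2 at 1 h, against 203.4, 207.0 and 214.0 in the others. Lama2 measured 271.1 in replicate 2 at 30 min, against 142.9, 146.0 and 159.2. Mertk measured 43 in replicate 3 at 30 min, against 62.8, 64.1 and 65.45.

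For 3 genes all 6 mg animals lay above the isopropyl alcohol mean at 6 or 24 h and all lay below it earlier. The difference between times was not tested. Other genes changed sign without meeting this rule, such as Rapgef4, at -1.34 at 3 h and 0.11 at 24 h. Rapgef5 was at 0.29 at 6 h and 0.38 at 24 h, and at -1.40 at 3 h. Prickle2 was at 0.60 at 24 h, and at -1.53 and -0.60 at 3 and 6 h. Mertk was at 0.25 at 24 h, and at -1.47 and -0.33 at 3 and 6 h.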

How the results depend on the processing

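No paired analysis was possible because the letters shared by labels name the 2 chips of 1 animal and replicate numbers were given in accession order only. Under the alternatives, 706 recomputed counts and medians of the 31 genes stayed within 1.5 times the count or 1 SD, and 50 moved. The 706 include counts of 0 that stayed 0, such as counts of genes called higher after 6 mg. No median of 6 mg at 3, 6 or 24 h or of 3 mg at 6 h changed sign. The cause of the moves was not tested. For 6 mg, the count at 1 h (2) was 1 with no filter, 0 with quantile normalization, chip A alone, chip B alone, the scan-day block, only the groups of the time or saline animals as control, and 0 to 1 without an animal. At 3 h it was 13 with only the groups of the time and 11 to 20 without an animal (11 without 6 mg replicate 3), and the median was -0.52 with an offset of 64. At 6 h the median was -1.31 and -0.75 with offsets of 16 and 64, and -1.34 with saline animals as control. At 24 h the count was 7 to 11 without an animal (7 without 6 mg replicate 1), 1 gene was called higher with array weights or only the groups of the time, and the median was -0.31 with an offset of 64.

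For 3 mg, the median was -0.17 at 30 min with saline animals as control, and at 1 h it was -0.14 with an offset of 64, -0.18 with array weights and -0.077 with saline animals. At 3 h 1 gene was called with array weights or without 3 mg replicate 3. At 6 h 7 were called with only the groups of the time and 9 to 18 without an animal (9 without 3 mg replicate 1, 11 without isopropyl alcohol replicate 2), and the median was -0.49 with an offset of 64. At 24 h 0 were called with only the groups of the time or saline animals. For 1 mg minus saline, the median was -0.14 at 30 min with chip A alone, and at 1 h -0.052 with chip A alone, -0.042 with the scan-day block and -0.038 to 0.023 without an animal. At 6 h 2 genes (Plcb1 and Cdk14) were called lower with quantile normalization and 2 with array weights, and 0 to 3 without an animal (1 without saline replicate 1, 3 without saline replicate 3). At 24 h the median was -0.049 to 0.15 without an animal, lowest without saline replicate 1. For saline at 24 h minus 6 h, 0 were called lower with only saline groups and 0 to 1 without an animal (0 without saline 24 h replicate 1), and 0 to 2 were called higher without an animal. Dim probe sets close to the offset have differences that are set by it.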
